A study of Mus musculus with 10 samples.

Results

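The genes described here are 44 listed targets of E2F transcription factors that copy DNA, followed through the organoid libraries of a mouse liver cancer series. They were taken by symbol from a fixed list, drawn up with earlier results of these data known. Each of the 44 was found once among the 49585 genes of the deposited tables. The series addresses hepatocellular carcinoma in mice that lose the Rb family genes in the liver, and it holds 10 bulk RNA samples in 5 groups of 2. Only the Ck19-derived and the Sox9-derived organoids, with 2 libraries each, had columns that could be tied to samples with an organoid label, and the 6 samples of sorted Epcam-, Epcamhigh and Thy1+ cells were not analysed here. Ck19 (the protein of Krt19) and Sox9 mark bile duct and progenitor cells of the liver. The labels give no treatment for any group, and cells carrying YFP, the mark of Cre acting on floxed alleles, were sorted from digested livers or lesions. Genotype, age, the driver of Cre, the number of animals and how the organoids were grown are not given for the libraries used here. The triple deletion is named by the series title alone, and whether each of these libraries carries it is not known.

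A cell copies its genome once per cycle. In G1 the origin recognition complex, Cdc6 and Cdt1 load the ring of Mcm2 to Mcm7 on DNA. At the start of S phase the ring is joined by Cdc45 and the GINS complex and becomes the working helicase, followed by polymerases, the sliding clamp, histone chaperones and the enzymes that make nucleotides. Most of these genes are activated by E2F factors as cells enter S phase, and the Rb family proteins hold E2F in check. In the resting adult liver few cells divide and these genes are mostly low. Genes of G2 and mitosis follow in time and are controlled largely through other promoter elements, the CCAAT box and the CHR (cell cycle genes homology region).

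The promoters of 37 of the 44 genes were at hand as windows of 300 bases from RefSeq (GRCm38.p6), 250 before and 50 after the annotated start. They were searched on both strands for the E2F site letters TTTCCCGC, TTTCGCGC, TTTGCCGC and TTTGGCGC. A match was found in 17 of 37 replication genes (45.9%), in 9 of 41 other replication genes (22.0%), in 1 of 19 G2 and mitosis genes (5.26%) and in 2.60% of 27025 genes. The CHR letters TTTGAA were found in 6 of 37 replication genes (16.2%), 8 of 41 other replication genes (19.5%), 14 of 19 G2 and mitosis genes (73.7%) and 20.2% of all genes. In the 250 upstream bases alone the CHR share of G2 and mitosis genes was 7 of 19 (36.8%, against 18.3% of all genes), and the E2F share of the replication genes was 11 of 37 (29.7%, against 2.16%). CCAAT was found in 59.5% of the replication genes, 89.5% of the G2 and mitosis genes and 41.1% of all genes. A match describes letters and is not evidence of binding. The upstream stretches of 4 genes are shown because they span the results below: Mcm6 and Mcm5 encode subunits of the abundant helicase ring, Pola1 had one of the largest positive differences between the organoid groups and Rrm2 the largest negative one. Each is given 5′ to 3′ on the gene's strand, and capitals mark E2F matches.

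Mcm6 (chr1:128359706-128359905, minus strand): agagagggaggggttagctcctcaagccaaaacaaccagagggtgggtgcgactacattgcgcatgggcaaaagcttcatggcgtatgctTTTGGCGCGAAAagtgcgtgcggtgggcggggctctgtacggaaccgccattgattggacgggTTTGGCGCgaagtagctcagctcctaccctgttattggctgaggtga
Mcm5 (chr8:75109309-75109508, plus strand): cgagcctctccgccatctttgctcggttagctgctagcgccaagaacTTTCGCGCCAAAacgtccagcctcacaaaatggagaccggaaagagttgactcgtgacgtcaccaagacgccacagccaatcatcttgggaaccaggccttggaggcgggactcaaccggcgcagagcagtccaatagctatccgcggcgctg
Pola1 (chrX:93632156-93632355, minus strand): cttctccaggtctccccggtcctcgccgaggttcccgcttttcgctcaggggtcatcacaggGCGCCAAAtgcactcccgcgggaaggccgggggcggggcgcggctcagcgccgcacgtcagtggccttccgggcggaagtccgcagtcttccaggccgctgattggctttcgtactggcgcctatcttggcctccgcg
Rrm2 (chr12:24708041-24708240, plus strand): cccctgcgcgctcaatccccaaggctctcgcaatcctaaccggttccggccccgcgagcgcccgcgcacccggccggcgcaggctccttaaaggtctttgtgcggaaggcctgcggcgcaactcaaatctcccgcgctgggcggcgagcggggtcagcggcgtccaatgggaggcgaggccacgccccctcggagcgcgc

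Mcm6 held 3 matches, at −110, −106 and −47 from the start, of which the first 2 overlap. Mcm5 held 2 overlapping matches, at −153 and −149, and Pola1 held 1, at −138. Rrm2 held none of these letters in its window, which says nothing on whether E2F binds there.

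The organoid libraries held 31883180 to 36606008 fragments assigned to genes, and low mapping quality removed 33.2% to 40.0% of the fragments. Epithelial markers were high: Epcam ran from 2101 to 3833 CPM (assigned fragments scaled to the library total) and Krt19 from 1945 to 3120 CPM, while 8 hepatocyte genes summed to 260 to 627 CPM. Myeloid genes summed to 84.9 and 47.4 CPM in the Ck19-derived and 18.4 and 26.7 CPM in the Sox9-derived pair, and lymphocyte, endothelial and stellate genes summed to at most 1.22 CPM each in any of the 4. Xist had 1923 and 1869 fragments in the Ck19-derived libraries and 1 in each Sox9-derived library, whereas Y-linked Eif2s3y had 3 and 3 against 3383 and 2615, so sex and animal cannot be told apart from the organoid groups. A second pair of columns, which carry the name Sox9 with a TKO tag and number, also fits the titles of the Sox9-derived samples. That pair goes against the organoid label, with Epcam at 8.99 and 5.61 CPM, Krt19 at 0.619 and 1.61 CPM and albumin (Alb) at 21740 and 13158 CPM. It is called the TKO-tagged Sox9 pair and is treated apart, at the end. In bulk RNA, fewer cycling cells and less RNA per cycling cell cannot be told apart. The labels do not state whether the libraries of a group are separate cultures or animals, so a p-value here reflects the spread among these libraries alone, and that spread may be technical.

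All 44 genes were expressed in every library and all passed the count filter. The fewest fragments of any of them in an organoid library were 213 (Fen1 in Ck19-derived library 1). Together they took 7451 and 8670 CPM in the Ck19-derived and 9535 and 9913 CPM in the Sox9-derived libraries, so the sums of the groups did not overlap. Their median level was 113 and 158 CPM against 163 and 180 CPM.

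**Figure D1:**
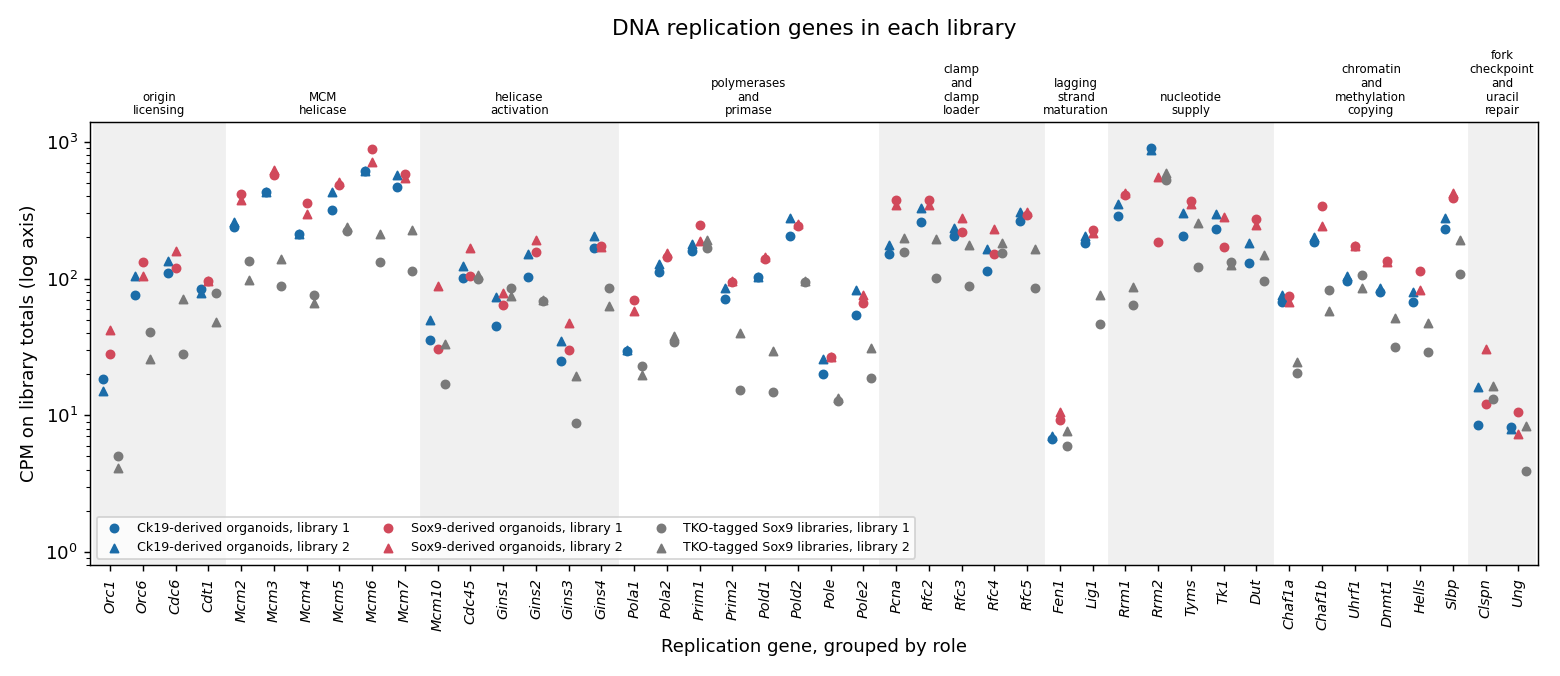
CPM on library totals (log axis) of the 44 replication genes in each library, grouped by role. Circles are library 1 and triangles library 2 of each pair. Rrm2 is the gene whose Sox9-derived libraries, at 186 and 554 CPM, both lie below the Ck19-derived ones, at 893 and 872 CPM.

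Levels were compared between genes per kilobase of exon, as the mean of the 4 organoid libraries. The median replication gene lay at percentile 88.5 of all tested genes on this scale, 40 of 44 lay above percentile 50 and 14 above percentile 90. Rrm2, the small subunit of ribonucleotide reductase, was the highest at 226 CPM per kilobase. The ring subunits Mcm6 (151 CPM per kilobase) and Mcm3 (136) came next, and Gins4 (132), Pold2 (129) and Mcm7 (122) followed them. The lowest were Ung, which cuts uracil out of DNA, at 1.55 CPM per kilobase, Pole, the catalytic subunit of polymerase epsilon, at 2.22, and Clspn, a fork checkpoint adaptor, at 2.34. On this scale subunits that act in 1 complex were not at 1 level. Within the ring the range was 46.1 (Mcm2) to 151 (Mcm6), and within GINS 12.7 (Gins3) to 132 (Gins4). In polymerase epsilon Pole stood at 2.22 against 40.9 for Pole2. The length counts all annotated exons of a gene and not the transcripts expressed. It was 6956 bases for Mcm2 and 4666 for Mcm6, and 11160 for Pole and 1695 for Pole2. The part of annotation in these gaps was not tested. Fen1, at 3.47, is uncertain, because 84.2% of its exon bases are shared with the neighbouring genes Tmem258 and Gm10143 and fragments there were not assigned. The same holds for Gins2 (67.3% shared with Gse1), and 12 of the 44 genes share over 5% of their exon bases with another gene.

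The main comparison asked how the replication genes stood in the Sox9-derived against the Ck19-derived organoids. Most of them were somewhat higher in the Sox9-derived libraries, but none of the 44 differed at an adjusted p under 0.05 by edgeR's quasi-likelihood test with Benjamini-Hochberg adjustment over 16653 genes, where 0.570% of all tested genes were called (0.186% higher and 0.384% lower). Relative log expression factors (0.582%), limma-voom (0.558%) and a replicate block (0.00%) also called 0 of the 44. The median log2 fold change was 0.38, against 0.01 for all tested genes, and the single values ran from −1.25 for Rrm2 to 1.14 for Pcna. Of the 44, 40 lay above 0 and 4 below, where 50.4% of all tested genes lay above. The libraries of the groups did not overlap in 27 genes that were higher (24.6% of all genes) and in 1 that was lower (26.3% of all genes), and they overlapped in 16. An unadjusted p under 0.05 was reached by 12 of the 44, all on the higher side, against 7.64% of all genes on that side. DESeq2 on the same counts called 9 of the 44 higher and 0 lower, where it called 9.08% of all genes and 3.90% as higher: Pcna, Pola1, Uhrf1, Mcm2, Dnmt1, Slbp, Mcm4, Dut and Orc1. In edgeR the calls depended on the library left out: 2 of 44 without Sox9-derived library 1 (Pcna and Orc1, with 7.67% of all genes called), 3 without Sox9-derived library 2 (Pcna, Pola1 and Rrm2, with 5.35%) and 0 without either Ck19-derived library (0.00%).

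The size of the shift depended on which libraries were set against each other. By the median of log2(CPM + 0.5), Sox9-derived library 1 lay 0.44 and library 2 lay 0.49 above Ck19-derived library 1, but only 0.18 and 0.26 above Ck19-derived library 2. Ck19-derived library 2 itself lay 0.24 above library 1, with 39 of the 44 genes higher. The Sox9-derived libraries differed by 0.04 in the median. The difference between the groups (0.36 on this scale, against −0.01 for all tested genes) was thus larger than the difference within either pair, and the step within the Ck19-derived pair was of a like order. In simulated counts with these means and depths the test recovered 18% of genes changed 2-fold and 60% of those changed 4-fold. No smaller change was simulated. These shares were not taken for the 44 replication genes alone, and how often the test would recover changes in them was not tested.

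**Figure D2:**
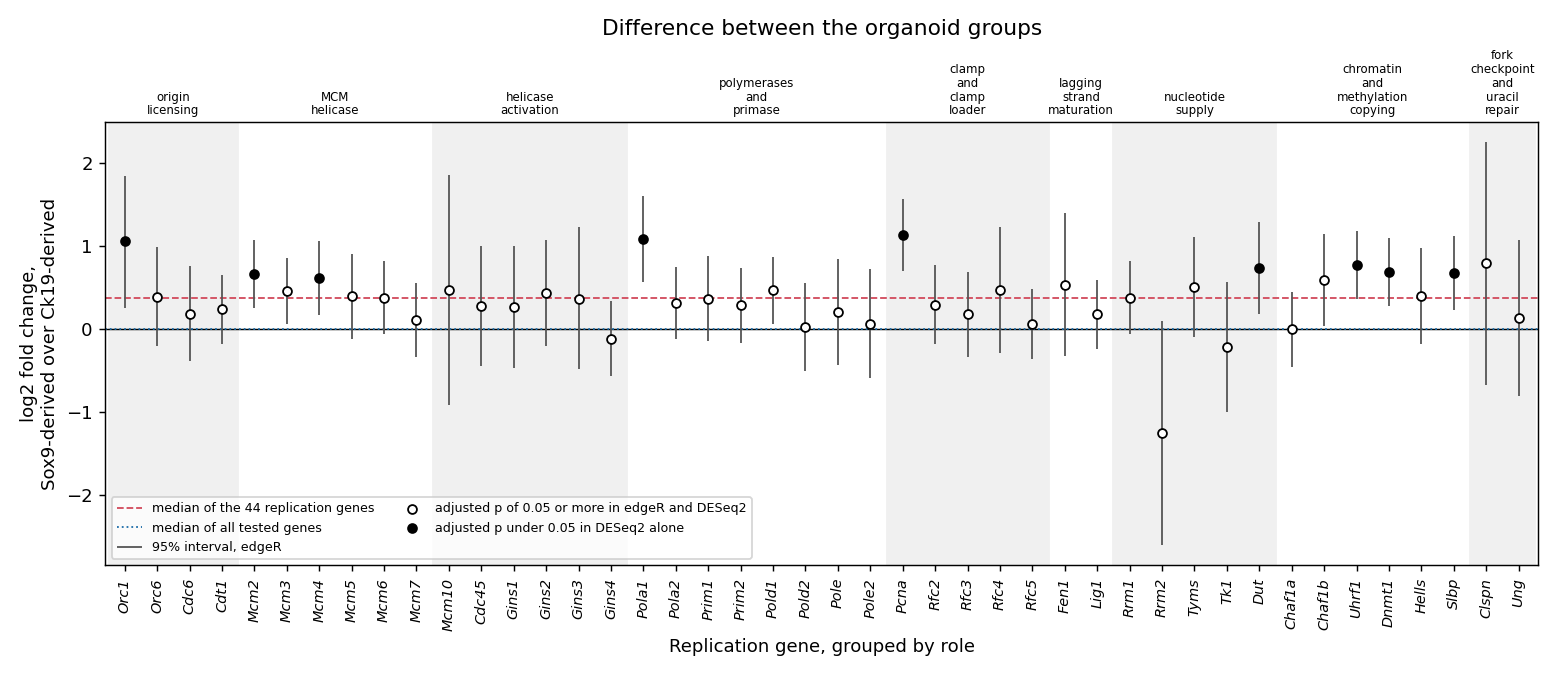
log2 fold change, Sox9-derived over Ck19-derived, of each replication gene with its 95% interval from edgeR. The dashed line is the median of the 44 genes (0.38), the dotted line that of all tested genes (0.01), and filled points are the 9 genes called by DESeq2 alone.

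Of the origin licensing genes, all 4 had a log2 fold change above 0 (50.4% of all genes), with a median of 0.32. In 3 the Sox9-derived libraries were higher without overlap (24.6% of all genes). Orc1, the largest subunit of the origin recognition complex, stood at 18.5 and 15.1 CPM in the Ck19-derived pair, against 28.1 and 41.8 CPM. Both Sox9-derived libraries were higher, by 2.08-fold in the mean (log2 fold change 1.06, SE 0.31, edgeR quasi-likelihood adjusted p = 0.200). Cdc6, which loads the helicase with Orc1, stood at 110 and 135 CPM against 120 and 159 CPM, and these overlapped (log2 fold change 0.19, SE 0.22, edgeR quasi-likelihood adjusted p = 0.720). Cdt1 and Orc6 lay between them at 0.25 and 0.39.

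None of the 6 ring subunits passed the test. All 6 log2 fold changes lay above 0 (50.4% of all genes), with a median of 0.43, and 5 were higher without overlap (24.6%). Mcm2 stood at 239 and 257 CPM in the Ck19-derived and 414 and 375 CPM in the Sox9-derived libraries. The Sox9-derived libraries were 1.59-fold higher (log2 fold change 0.67, SE 0.16, edgeR quasi-likelihood adjusted p = 0.149). Mcm3 stood at 428 and 432 CPM against 569 and 617 CPM, and Mcm6 at 610 and 615 CPM against 879 and 712 CPM. The Ck19-derived libraries were nearly equal in both genes, and the Sox9-derived ones were higher in every library (log2 fold changes 0.46, SE 0.15, and 0.38, SE 0.17, edgeR quasi-likelihood adjusted p = 0.239 and 0.355). Mcm7 was the smallest of the 6, at 465 and 575 CPM against 577 and 546 CPM. Its groups overlapped, and the log2 fold change of 0.11 (SE 0.17, edgeR quasi-likelihood adjusted p = 0.798) turned to −0.03 without Ck19-derived library 1. Of the 50-base words of Mcm7, 23.3% also occur in other genes, among them its copy Gm5487.

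The genes that switch the ring on varied more between libraries than between groups. Of the 6, only Gins2 was higher without overlap (24.6% of all genes), and the median was 0.33. Mcm10, which helps the assembled helicase start unwinding, stood at 35.7 and 49.9 CPM in the Ck19-derived and 30.5 and 87.9 CPM in the Sox9-derived libraries. The Sox9-derived libraries lay on both sides of the Ck19-derived ones, and the log2 fold change was 0.47 (SE 0.53, edgeR quasi-likelihood adjusted p = 0.714), or −0.49 without Sox9-derived library 2. Gins4, a GINS subunit, was at 167 and 203 CPM against 173 and 170 CPM, with a log2 fold change of −0.11 (SE 0.17, edgeR quasi-likelihood adjusted p = 0.807). Cdc45, Gins1, Gins2 and Gins3 had log2 fold changes of 0.28, 0.27, 0.44 and 0.37.

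All 8 polymerase and primase genes lay above 0 (50.4% of all genes), with a median of 0.30, and 6 were higher without overlap (24.6%). Pola1, the catalytic subunit of polymerase alpha, which with primase starts each new strand, lies on the X chromosome (93304767 to 93632155, GRCm38). It stood at 29.7 and 30.2 CPM in the Ck19-derived and 69.4 and 58.2 CPM in the Sox9-derived libraries. The difference was 2.13-fold, larger than the spread within either pair (log2 fold change 1.09, SE 0.20, 95% interval 0.57 to 1.61, edgeR quasi-likelihood adjusted p = 0.106, DESeq2 adjusted p = 0.000328). Of its partners in the same complex, none of which passed, Pola2 had a log2 fold change of 0.32, Prim1 of 0.37 and Prim2 of 0.29, and the difference from Pola1 was not tested. Pold2, a subunit of polymerase delta, stood at 205 and 279 CPM against 243 and 249 CPM and overlapped (0.03, SE 0.20, edgeR quasi-likelihood adjusted p = 0.964). Pole stood at 20.1 and 26.0 CPM against 26.5 and 26.6 CPM, a gap to the nearest library smaller than the spread of the Ck19-derived pair (0.21, SE 0.25, edgeR quasi-likelihood adjusted p = 0.730).

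Pcna, the sliding clamp that holds polymerases on DNA, had the largest positive difference of the 44. Its Ck19-derived libraries held 152 and 175 CPM, the Sox9-derived ones 374 and 344 CPM. The latter were 2.20-fold higher (log2 fold change 1.14, SE 0.17, 95% interval 0.70 to 1.57, edgeR quasi-likelihood adjusted p = 0.0789, DESeq2 adjusted p = 3.08e-07). It was the gene nearest to the threshold, and it was the 1 gene of the 44 called with no count filter (1.52% of all genes) and with a minimum of 1 CPM (1.72%), and was also called without either Sox9-derived library (log2 fold changes 1.10 to 1.19, edgeR quasi-likelihood adjusted p = 0.0193 to 0.0465). Of its 50-base words, 19.1% also occur in other genes, foremost the copy Pcna-ps2. The log2 fold changes of the clamp loader genes were smaller, and their contrast with Pcna was not tested. Rfc5 stood at 263 and 306 CPM against 291 and 304 CPM (log2 fold change 0.06, SE 0.17, edgeR quasi-likelihood adjusted p = 0.886). Rfc2, Rfc3 and Rfc4 had log2 fold changes of 0.30, 0.18 and 0.47, and the 95% interval of Rfc4 was −0.29 to 1.23. The count ratio of Pcna to Rfc5 was 0.576 and 0.573 in the Ck19-derived and 1.29 and 1.13 in the Sox9-derived pair. It does not depend on scaling between libraries. In lagging strand maturation, Lig1, the ligase that seals Okazaki fragments, stood at 182 and 206 CPM against 226 and 214 CPM (0.18, SE 0.16, edgeR quasi-likelihood adjusted p = 0.629). Fen1, the nuclease that trims their flaps, stood at 6.68 and 7.02 CPM against 9.29 and 10.6 CPM, counted on the exon bases it does not share (0.54, SE 0.33, edgeR quasi-likelihood adjusted p = 0.490).

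Nucleotide supply held the widest range of log2 fold changes of the 9 roles. Rrm2 stood at 893 and 872 CPM in the Ck19-derived libraries, against 186 and 554 CPM. Both Sox9-derived libraries were lower, and they lay 1.57 apart on the log2 scale. The log2 fold change was −1.25 (SE 0.52, 95% interval −2.60 to 0.10, edgeR quasi-likelihood adjusted p = 0.327). Without Sox9-derived library 2 it was −2.25 and called (edgeR quasi-likelihood adjusted p = 0.000797), and without library 1 it was −0.65. Rrm1, the large subunit of the same enzyme, went the other way, at 286 and 349 CPM against 405 and 422 CPM (log2 fold change 0.38). The count ratio of Rrm2 to Rrm1 was therefore 3.12 and 2.50 in the Ck19-derived libraries but 0.460 and 1.31 in the Sox9-derived ones, and the groups did not overlap. Dut, which keeps uracil out of DNA by splitting dUTP, stood at 129 and 181 CPM against 272 and 247 CPM (0.74, SE 0.22, edgeR quasi-likelihood adjusted p = 0.200). Tyms, which makes thymidylate, had a log2 fold change of 0.51 and did not overlap, and Tk1, the salvage kinase, had one of −0.21 and overlapped.

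The genes that copy chromatin and DNA methylation had the largest median of the 9 roles, at 0.64. Of the 6, 5 were higher without overlap (24.6% of all genes). Uhrf1, which recognises freshly copied hemimethylated DNA, stood at 96.2 and 105 CPM in the Ck19-derived and 172 and 172 CPM in the Sox9-derived libraries (1.71-fold, log2 fold change 0.78, SE 0.16, edgeR quasi-likelihood adjusted p = 0.122). Dnmt1, the methyltransferase that Uhrf1 recruits, stood at 79.3 and 85.3 CPM against 134 and 132 CPM, a log2 fold change of 0.69. These partners showed differences of like size, each larger than the spread within both pairs. Slbp, which binds histone mRNA, had a log2 fold change of 0.68. Chaf1a and Chaf1b are subunits of one histone chaperone, yet Chaf1a stood at 67.4 and 75.5 CPM against 74.9 and 67.8 CPM (log2 fold change −0.00, SE 0.18, edgeR quasi-likelihood adjusted p = 1), while Chaf1b had a log2 fold change of 0.59 and did not overlap. Chaf1b was not called (edgeR quasi-likelihood adjusted p = 0.272), and its contrast with Chaf1a was not tested. Chaf1a shares 49.7% of its 50-base words with other genes. Clspn stood at 8.56 and 16.1 CPM against 12.1 and 30.4 CPM (0.80, SE 0.57, edgeR quasi-likelihood adjusted p = 0.547) and Ung at 8.25 and 7.88 CPM against 10.5 and 7.30 CPM (0.14, SE 0.36, edgeR quasi-likelihood adjusted p = 0.884), both with overlap.

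A list of 49 other replication genes was counted in the same way. edgeR called 0 of them (0.570% of all genes) and 41 lay above 0 (50.4%), with a median of 0.29. Without overlap, 21 were higher and 2 lower (24.6% and 26.3% of all genes). DESeq2 called 4 of the 49 higher and 1 lower, where it called 649 and 863 of 16653 genes. Mcm8, a helicase of homologous recombination, and Dscc1, of an alternative clamp loader, had the largest log2 fold changes, at 1.18 and 1.12. Their DESeq2 adjusted p-values were 0.0753 and 0.0192. Samhd1, which degrades dNTPs, and Pold4, the small subunit of polymerase delta, had the smallest. Samhd1 had a log2 fold change of −0.76, and Pold4 one of −1.26. Pold4 stood at 71.8 and 61.0 CPM in the Ck19-derived and 22.5 and 32.8 CPM in the Sox9-derived libraries, so both Sox9-derived libraries were lower (SE 0.27, edgeR quasi-likelihood adjusted p = 0.130, DESeq2 adjusted p = 0.00184). edgeR called Pold4 without Sox9-derived library 2 (−1.56, adjusted p = 0.018) and Dscc1 without Sox9-derived library 1 (1.40, adjusted p = 0.0188). The Rb family genes, whose products restrain this programme, were all detected. Rb1 stood at 21.0 and 21.8 CPM against 14.5 and 12.6 CPM (edgeR quasi-likelihood adjusted p = 0.297), Rbl1 at 4.05 and 1.86 against 2.84 and 1.30 CPM, and Rbl2 at 7.78 and 6.99 against 8.77 and 7.36 CPM. Counts over whole genes do not show whether floxed exons were deleted, and these values therefore leave the knockout unchecked.

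The Sox9-derived libraries differed from each other in the G2 and mitosis genes and in few replication genes. In library 2 against library 1, 24 of 24 G2 and mitosis genes were higher, with a median log2 difference of 0.95, and 11 were over 2-fold higher. Of all tested genes 8103 of 16653 were higher and 9.63% were over 2-fold higher. The replication genes had a median of 0.04, with 26 of 44 higher. Only Rrm2, Mcm10 and Clspn were over 2-fold higher in library 2, by log2 differences of 1.57, 1.51 and 1.29. Mki67, the proliferation marker, stood at 71.2 and 195 CPM in these libraries and at 48.3 and 63.0 CPM in the Ck19-derived ones. Within the Ck19-derived pair both lists were higher in library 2, with medians of 0.24 for the replication genes and 0.41 for the G2 and mitosis genes (22 of 24 higher). Between the groups the G2 and mitosis genes had a median log2 fold change of 0.50. Of the 24, edgeR called 0 (0.570% of all genes) and 7 were higher without overlap (24.6%). On log2(CPM + 0.5) their median difference between the groups was 0.40, smaller than that between the Sox9-derived libraries. The extremes of that list were Mki67 (1.27), Kif20a (0.99), Plk1 (−0.19) and Ube2c (−0.27). Without Sox9-derived library 2 Mki67 was at 0.36 and Kif20a at 0.55. Without Sox9-derived library 1 they were at 1.83 and 1.34 and both were called (edgeR quasi-likelihood adjusted p = 0.0022 and 0.0243).

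**Figure D3:**
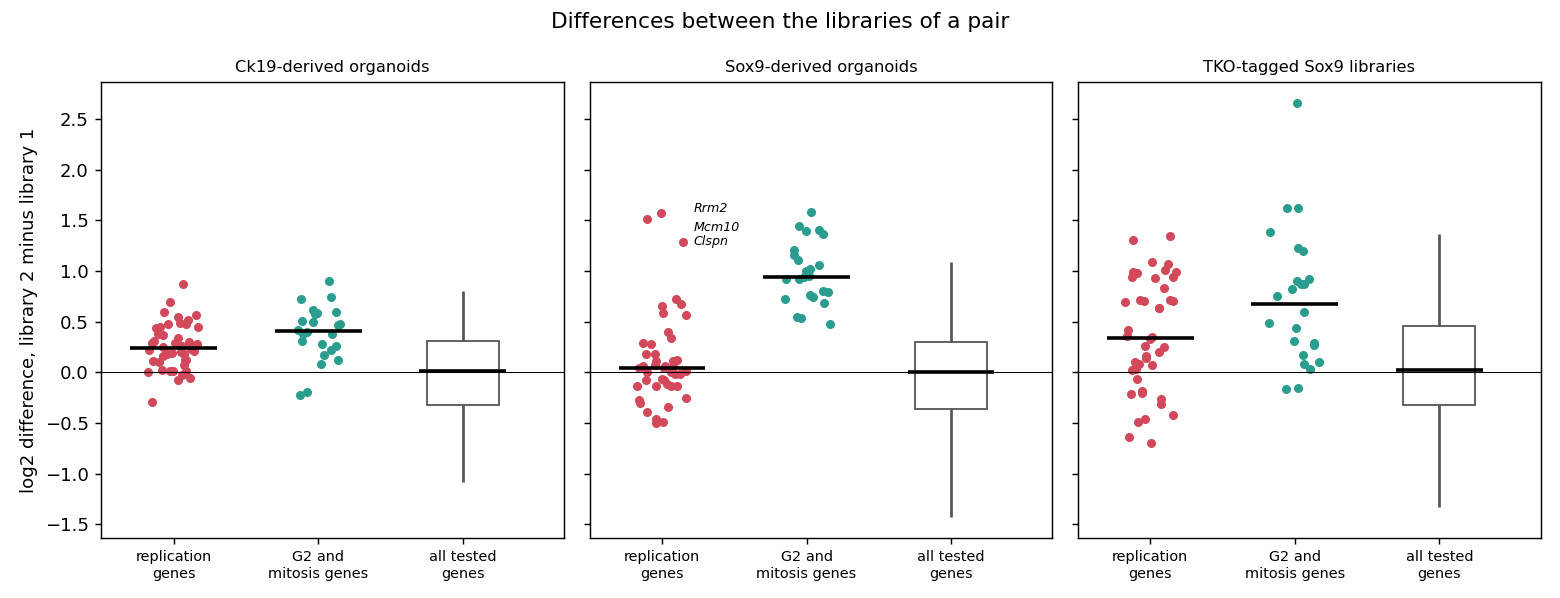
log2 difference of library 2 minus library 1 in each pair, on log2(CPM + 0.5), for the 44 replication genes, the 24 G2 and mitosis genes and all tested genes. Points are genes, thick bars medians, the box is the interquartile range of all tested genes and its lines reach the 5th and the 95th percentile. In the Sox9-derived pair the G2 and mitosis genes have a median of 0.95 and the replication genes one of 0.04.

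The TKO-tagged Sox9 pair gave lower levels of most replication genes. They summed to 3629 and 4636 CPM, below all 4 organoid libraries. In 30 of 44 genes both TKO-tagged libraries lay below every organoid library (49.2% of all genes), in 14 they overlapped, and in 0 they lay above. This pair held hepatocyte transcripts at a summed 50860 and 39541 CPM. The 8 listed biliary epithelial genes summed to 6672 and 3583 CPM, little of it Epcam or Krt19, against 24815 to 41022 CPM in the organoids. The TKO-tagged pair also held more of every other cell type list (myeloid 752 and 678 CPM, stellate and fibroblast 329 and 174 CPM). The part of these transcripts in the lower replication levels was not tested. The tables were counted alike but hold separate libraries, and the scaling decides how much lower the genes were. On library totals the median log2 difference from the Ck19-derived pair was −1.02, where that of all tested genes was −0.69. After TMM scaling the fitted medians were −0.24 and −0.07.

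By edgeR's quasi-likelihood test after TMM scaling, 8 of 44 replication genes were called between the TKO-tagged and the Ck19-derived pair, where 28.9% of all tested genes were called. Of these 3 were higher (15.0% of all genes) and 5 lower (14.0%). Scaled by library totals, 0 were called higher (10.9% of all genes) and 17 lower (28.8%, or 39.7% in either direction). DESeq2 called 15 (36.0% of all genes), edgeR with no count filter 1 (12.7%) and edgeR with the replicate number as a block 1 (18.5%). Without Ck19-derived library 1 or 2, edgeR called 0 of 44 (4.73% and 4.53% of all genes), and without TKO-tagged library 1 or 2 it called 11 and 15 (35.0% and 36.2%). The 5 lower genes were lower under both scalings: Rrm1 (TMM log2 fold change −1.32, library totals −2.08), Pold1 (−1.46 and −2.20), Mcm3 (−1.17 and −1.92), Pola2 (−0.97 and −1.73) and Chaf1a (−0.91 and −1.67), with TMM edgeR quasi-likelihood adjusted p = 0.0216 to 0.0468. Rrm1 stood at 64.4 and 86.1 CPM, and Pold1, the catalytic subunit of polymerase delta, at 14.7 and 29.7 CPM, below all 4 organoid libraries. The 3 genes called higher by TMM were Gins1 (1.20), Rfc4 (1.03) and Prim1 (0.85), and on library totals their log2 fold changes were 0.43, 0.27 and 0.10 with none called. By CPM all 6 ring subunits lay below both Ck19-derived libraries, as did 10566 of 17938 tested genes. After TMM scaling 1 of the 6, Mcm3, was called, and Mcm5 had a log2 fold change of 0.06.

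**Figure D4:**
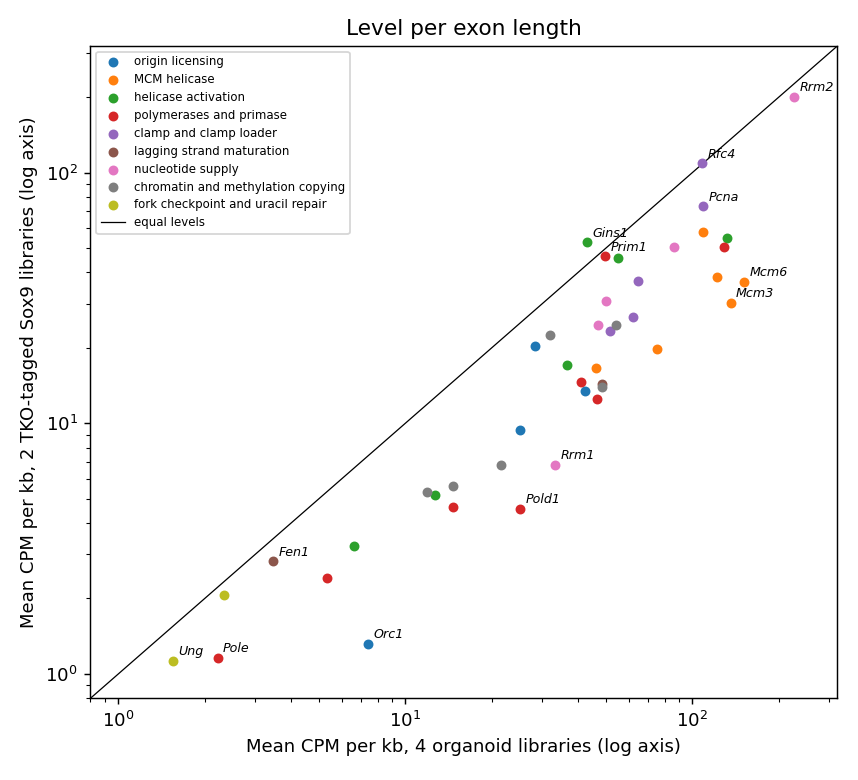
Mean CPM per kilobase of exon of each replication gene in the 4 organoid libraries (x) and in the 2 TKO-tagged Sox9 libraries (y), both on log axes, coloured by role. Most points lie below the line of equal levels, and Rrm2 (226 against 201), Rfc4 (108 against 109) and Gins1 (43.0 against 52.7) lie near it.

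Ratios between genes of 1 library do not depend on scaling, and these pairs of genes were chosen after their values were seen. Rrm2 to Rrm1 was 8.17 and 6.83 in the TKO-tagged pair, above the 4 organoid libraries at 0.460 to 3.12. Prim1 to Pola2, both in the polymerase alpha complex, was 4.89 and 5.08 against 1.22 to 1.73. Gins1 to Gins4 was 1.00 and 1.19 against 0.271 to 0.460, and Mcm5 to Mcm3 was 2.52 and 1.72 against 0.744 to 0.999. In each of these 4 ratios the TKO-tagged libraries lay above every organoid library, so the partners in each ratio did not differ by the same factor. The same held for Rfc4 to Rfc5 and Pcna to Mcm7. Rrm2 to Tyms (4.36 and 2.31 against 0.507 to 4.41) and Pcna to Rfc5 (1.83 and 1.22 against 0.573 to 1.29) overlapped the organoid libraries. Ratios of other gene pairs were not taken.

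**Figure D5:**
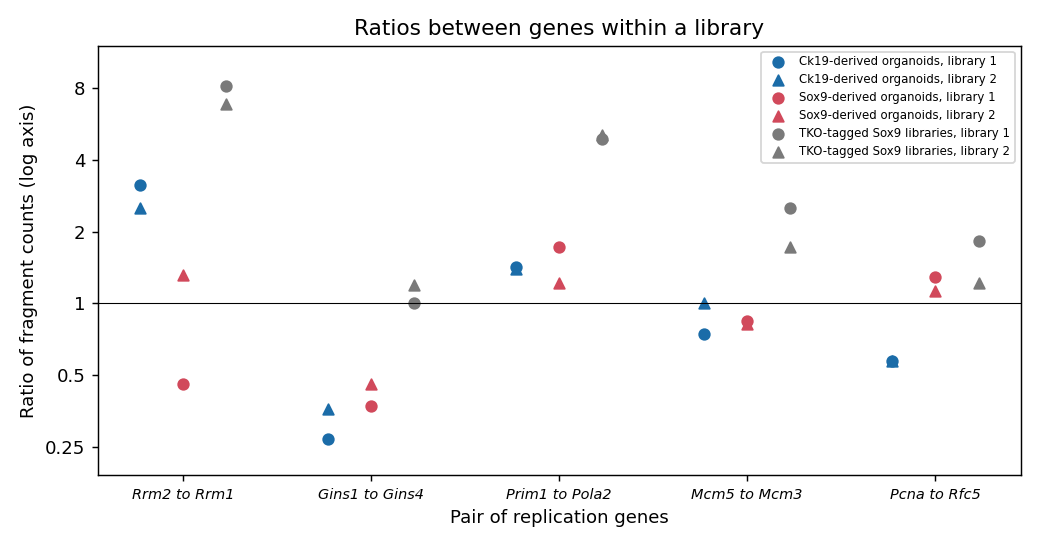
Ratio of fragment counts of 2 replication genes within each library (log axis). The TKO-tagged Sox9 libraries lie above all organoid libraries in the first 4 ratios. Pcna and Rfc5 had the largest and the smallest log2 fold change of their role between the organoid groups. In their ratio the Ck19-derived libraries (0.576 and 0.573) lie below the Sox9-derived ones (1.29 and 1.13).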

How the data were processed

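Per the file headers, the deposited tables hold counts of fragments per gene made by the authors with featureCounts v1.5.0-p3 on Ensembl release 87 gene models (GRCm38), both ends mapped, a minimum mapping quality of 10, strand ignored and no normalization. The gene length beside them, as deposited, is the exon length in bases. The submitters' processing notes also list STAR 2.5.4b. The summaries count 0 fragments removed as duplicates. Columns were tied to samples by name, and 4 library columns that matched no label were not used.

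Counts were scaled by TMM and tested with edgeR 4.0.16 (quasi-likelihood, filterByExpr with a minimum count of 10, Benjamini-Hochberg over all tested genes, threshold 0.05, two-sided) in R 4.3.3, with 2 residual degrees of freedom. The standard error is the fold change over the square root of F. CPM is on library totals, and medians use log2(CPM + 0.5). DESeq2 1.42.0 and limma-voom (limma 3.58.1) were alternatives, beside other scalings, filters, a replicate block and leaving out each library. The TKO-tagged comparison was added after the data were seen. In simulated counts of 16653 genes with 200 changed, edgeR made 9 false calls among 144. A gene was named by rule if called, if largest or smallest in its role or list, or if among the 3 highest or 3 lowest per kilobase, and the Rb family always. Further genes and gene ratios were named after their values were seen. The 44 genes and the lists were chosen with earlier results of these data known.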

Additional observations from a re-analysis of the deposited data

How the results depend on the processing

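In the Sox9-derived against Ck19-derived comparison, relative log expression factors, library totals and limma-voom called 0 of 44 replication genes, as did edgeR with TMM. DESeq2 called 9 (9.08% of all genes), no count filter 1 (1.52%) and a minimum of 1 CPM 1 (1.72%). Leaving out 1 library gave 0 to 3 calls: 0 without either Ck19-derived library, 2 without Sox9-derived library 1 and 3 without library 2, the last including Rrm2 as lower. A group with 1 library is assumed to vary like the other pair. The replicate numbers of the labels are not stated to pair samples, and the within-pair deviations correlated at 0.07 over all genes (0.29 over the 44). With the replicate block 0 of 44 and 0 of all genes were called. The median difference of 0.36 ran from 0.19 to 0.49 without 1 library. With the TKO-tagged columns as the Sox9-derived samples it became −1.02, and 8 of the 44 genes were called (28.9% of all genes).

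Among the genes named by rule, log2 fold changes changed sign in 12. Over the fits without 1 library, Cdc6 ran from −0.03 to 0.40, Mcm7 from −0.03 to 0.24, Gins4 from −0.24 to 0.00, Mcm10 from −0.49 to 1.06, Pold2 from −0.17 to 0.24, Rfc5 from −0.03 to 0.14, Chaf1a from −0.07 to 0.07, Ung from −0.12 to 0.38, Clspn from −0.02 to 1.33, Ube2c from −0.81 to 0.13, Plk1 from −0.66 to 0.17 and Rbl1 from −1.17 to 0.16. Of the other genes named, Tk1 ran from −0.63 to 0.12, Cdc45 from −0.10 to 0.59, Gins1 from −0.03 to 0.62 and Pole2 from −0.20 to 0.37, and Gins3 and Rfc3 reached −0.00. Chaf1a was at 0.00 with limma-voom or the replicate block and 0.01 with no filter, and Pold2 at −0.01 with a minimum of 1 CPM. The cause was not tested.

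For the TKO-tagged against the Ck19-derived pair, called genes numbered 17 by library totals (39.7% of all genes) and 15 by DESeq2 (36.0%). They numbered 1 with no filter (12.7%) and 1 with the replicate block (18.5%). The median was −0.27 with TMM and −0.21 with relative log expression factors.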

Other observations

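Dctd, the deaminase that feeds thymidylate synthesis from dCMP, was singled out after its values were seen. It stood at 26.8, 31.1, 48.9 and 21.7 CPM in the 4 organoid libraries, with 0.0188 and 0.335 CPM in the TKO-tagged Sox9 pair. Both TKO-tagged libraries were far below all others (TMM log2 fold change from the Ck19-derived pair −6.57, edgeR quasi-likelihood adjusted p = 0.0172), while Tyms, which uses its product, stood at 121 and 254 CPM there and overlapped the Ck19-derived libraries at 203 and 302 CPM.

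By Xist and Y-linked transcripts the TKO-tagged pair resembled the Sox9-derived organoids, with 2 and 1 fragments of Xist and 3770 and 3713 of Eif2s3y.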
